A study of Saccharomyces cerevisiae with 16 samples.

Results

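The 37 genes described here encode the aminoacyl-tRNA synthetases of budding yeast, together with ARC1, a tRNA-binding partner of 2 of the enzymes. They were listed by name and not by a cut-off on a measured value, though earlier results of these data were known when the list was chosen. The deposited count files list 7130 genes in all. Of the 37, 23 belong to the cytosolic set (22 synthetase genes and ARC1) and 14 to the mitochondrial set. All cells were of the haploid strain BY4742 with eIF4E-AID, in which eIF4E, the protein that binds the mRNA cap and starts most translation, carries an auxin-inducible degron, a tag that marks the protein for destruction once auxin is present. Cultures in the rich medium YPD received either 500 µM of the auxin indole-3-acetic acid (IAA) or the solvent DMSO, and were harvested 1 h or 8 h later. Levels of mRNA came from RNA-seq. Ribosome profiling counts footprints, the short stretches of mRNA that ribosomes shield from nuclease, and so reads how many ribosomes a coding sequence carries. The 8 groups (IAA 1 h, IAA 8 h, DMSO 1 h and DMSO 8 h in each assay) held 2 libraries each, 16 in total, and every group carried the tag. BY4742 lacks working HIS3, LEU2, LYS2 and URA3 genes and takes histidine, leucine and lysine from the medium. No library from cells without the tag is analysed here, so an effect of IAA itself and an effect of losing eIF4E cannot be told apart.

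Each synthetase joins 1 amino acid to its tRNAs, the charging step that supplies the ribosome. When charging falls behind, uncharged tRNA activates the kinase Gcn2, whose action raises translation of GCN4. Gcn4 is the transcription activator of amino acid biosynthesis genes and, in yeast, of some synthetase genes (general amino acid control). Many enzymes of yeast mitochondria have nuclear genes of their own. ALA1, GRS1, HTS1 and VAS1 are among the genes that supply both compartments, each from 1 gene by alternative starts. Whether other members also serve both was not examined here.

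The core of the Gcn4 site, TGACTC, was sought on both strands (GAGTCA on the other strand) in the 500 bases before each start codon, a window that can reach into a neighbouring gene. It was present for 11 of 23 cytosolic members (47.8%), for 2 of 14 mitochondrial members, MSW1 and SLM5 (14.3%), and for 759 of 6000 protein-coding genes (12.7%). A match of these letters is a description and not evidence of binding. The windows of the 5 members that hold the letters and whose footprints rose at 8 h are shown because they carry both properties, with 1 window that DED81 and the divergent neighbour YHR020W share, all from the R64 genome, 5′ to 3′ on the strand of the named gene, with the searched letters in capitals.
ALA1 (chrXV:949142-949165, minus strand): taaggaactTGACTCtttctttca
ILS1 (chrII:84349-84372, minus strand): aaacaatgaTGACTCttaagcatg
KRS1 (chrIV:525297-525320, plus strand): atgatgaaaTGACTCttaatgaac
THS1 (chrIX:212286-212309, plus strand): ctgtttaaaTGACTCttaccttgt
VAS1 (chrVII:672079-672102, plus strand): tttttagaaGAGTCAcccatacag
YHR020W (chrVIII:143805-143828, plus strand): gcgatgcttGAGTCActgaatgtc

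Of the cytosolic members, 5 of 11 with the letters and 6 of 12 without them rose in footprints at 8 h, where 11.8% of all genes rose. Their median log2 fold changes were 0.23 and 0.31. RNA at 8 h had medians of -0.34 in the 11 with them and -0.26 in the 12 without them. No test was made of either difference.

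Levels were read as CPM, counts of a gene relative to the library total, corrected by the trimmed mean of M-values (TMM), and, where genes are set against each other, as CPM per kb of coding sequence. Groups of 2 libraries that do not overlap are common in these data. Over all genes both IAA libraries lay above both DMSO libraries for 38.6% and below for 36.6% in RNA at 1 h. The shares were 32.5% and 30.3% in RNA at 8 h, 31.3% and 30.2% in footprints at 1 h, and 31% and 30.2% in footprints at 8 h. The 37 genes took 0.873 to 1.80% of RNA-seq counts and 0.807 to 1.68% of footprint counts, in libraries of 10182227 to 50294053 RNA counts and 1766499 to 9985060 footprint counts. Of these the footprint library DMSO 8 h replicate 1 was the shallowest. The labelled strain was checked against its markers: the 4 genes that BY4742 lacks had at most 37 RNA counts and 0 footprint counts in any library, and SAG1, an alpha-cell gene, had at least 3186 RNA counts in every library. The degron acts on the protein, so CDC33, the eIF4E gene, is no check of depletion in these data, and its RNA fell with IAA at 1 h (-0.39 ± 0.11 on the log2 scale) and at 8 h (-0.55 ± 0.15), while its footprints stood at -0.0079 ± 0.058 and -0.062 ± 0.12. All 37 members passed the filter on low counts in every comparison. No other gene of the RefSeq annotation of the R64 genome overlaps any of them, and counted features outside that annotation were not checked.

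The cytosolic genes were abundant and close in level, with 1 exception. In DMSO at 8 h, SES1 (serine), KRS1 (lysine), ARC1, DED81 (asparagine) and TYS1 (tyrosine) were among the highest, and RNA per kb ran from ARC1 at 616 CPM per kb down to CRS1 (cysteine) at 96.3 CPM per kb. GRS2, a second glycine enzyme gene that is little used under usual growth, stood apart from the rest of the cytosolic set at 9.55 CPM per kb, the lowest of the 37. Mitochondrial members had 10.5 CPM per kb (AIM10, proline) to 28.3 CPM per kb (MSF1, phenylalanine) in the same libraries. Their footprint counts were small, 7 to 191 counts per library at 8 h with a median of 78.5, against a median of 2616 for the cytosolic genes other than GRS2. Median SEs of the log2 footprint change at 8 h were 0.32 for mitochondrial and 0.12 for cytosolic members, so smaller changes could pass in the cytosolic set.

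The main pattern was at 8 h, where mRNA and footprints of the cytosolic set had medians of opposite sign. Footprints rose for 11 of the 23 members with IAA and fell for 0 (edgeR quasi-likelihood test, Benjamini-Hochberg adjusted p under 0.05 over all genes, which is what rose, fell and passed mean throughout), where 11.8% of all genes rose and 13.6% fell. RNA rose for 0 and fell for 4, where 10.7% of all genes rose and 10.3% fell. The median log2 fold change was 0.23 for footprints, with 21 of 23 positive, and -0.26 for RNA, with 23 of 23 negative, beside 0.0073 over all genes in footprints and 0.0080 in RNA. Translation efficiency, the footprint change beyond the RNA change fitted in 1 model, rose for 9 of 23 and fell for 0, where 3.73% of all genes rose and 2.22% fell. Its median was 0.67, with all 23 values positive, against -0.024 over all genes. With library sizes set by total counts alone, 20 rose in footprints, 3 fell in RNA and 15 rose in translation efficiency, and none of the 3 cytosolic medians changed sign. Over all genes that scaling gave 1343 rises and 207 falls in footprints (590 and 681 with TMM), 783 and 442 in RNA (653 and 630 with TMM) and 358 and 103 in translation efficiency (203 and 121 with TMM).

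**Figure D1:**
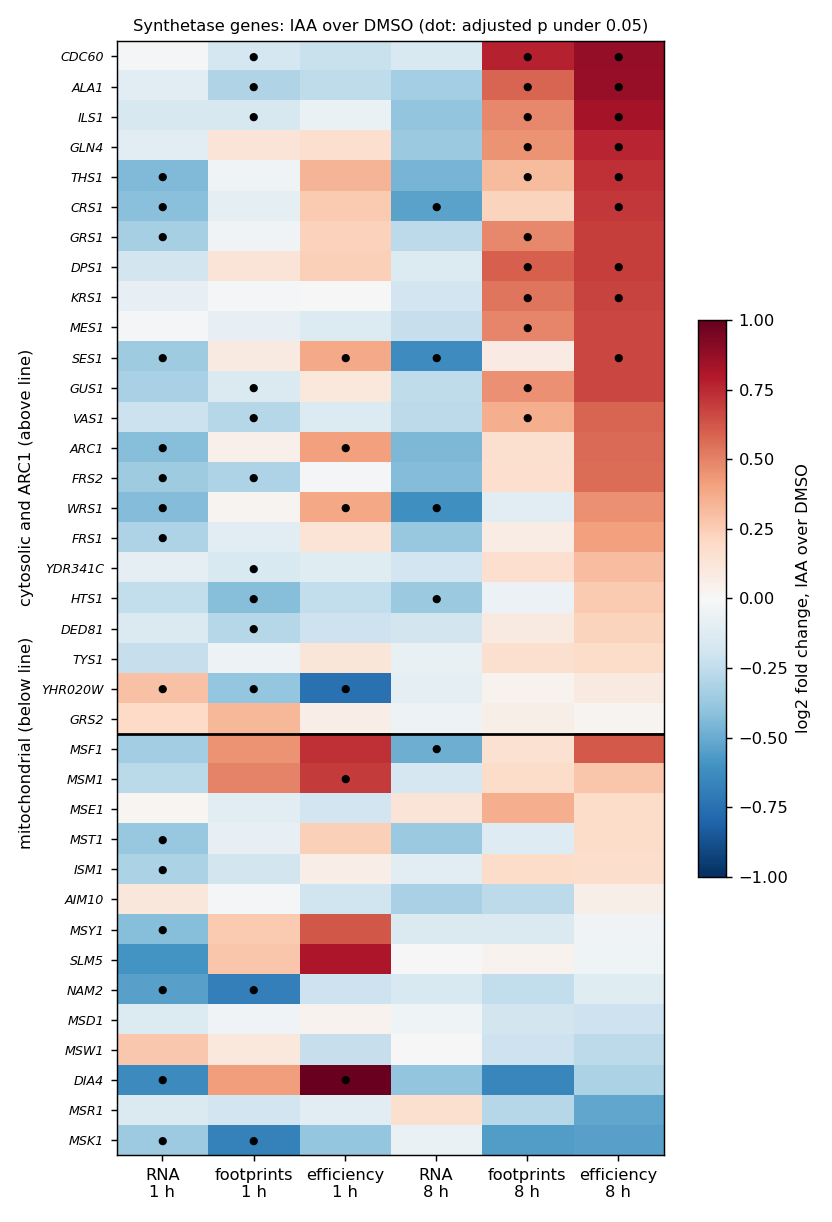
Log2 fold change, IAA over DMSO, of the 37 genes (down the page, cytosolic set above the line) across columns for RNA, footprints and translation efficiency, each at 1 h and 8 h, with a dot where the adjusted p was under 0.05. At 8 h the efficiency column is positive for all 23 cytosolic members and mixed for the 14 mitochondrial ones.

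The same counts were also read as raw shares of each library, where the footprint groups separated at 8 h and the RNA groups did not. The cytosolic set took 1.26 and 1.13% of footprint counts with IAA at 8 h, against 0.790 and 0.804% with DMSO, so both IAA libraries lay above both DMSO libraries. In RNA at 8 h the set took 1.03 and 0.834% with IAA, against 0.981 and 1.23% with DMSO, and the groups overlapped. At 1 h the shares were 1.62 and 1.66% of footprints with IAA, against 1.53 and 1.60% with DMSO, a smaller gap without overlap, and 1.76 and 1.69% of RNA with IAA, against 1.71 and 1.70% with DMSO, with overlap. The lower shares at 8 h than at 1 h came with another library preparation and cannot be told apart from it. With 2 libraries against 2, no exact permutation test of a single share can go below p = 0.333 (two-sided).

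**Figure D2:**
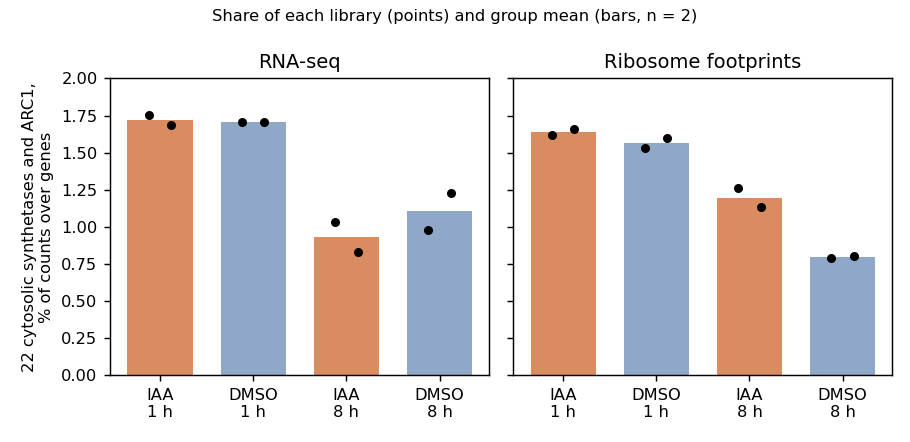
Percent of each library's gene counts taken by the 22 cytosolic synthetase genes and ARC1, for RNA-seq and footprints at 1 h and 8 h (points are libraries, bars the mean of 2). For footprints at 8 h the IAA libraries lie at 1.26 and 1.13%, above DMSO at 0.790 and 0.804%, and the RNA groups overlap at both times.

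At 1 h, calls in the cytosolic set were mostly falls. Footprints fell for 10 of 23 cytosolic members and rose for 0, where 14.8% of all genes fell and 11.3% rose, by at most 0.43 on the log2 scale. RNA fell for 8 and rose for 1, where 21.4% of all genes fell and 22.3% rose. Translation efficiency rose for 3 and fell for 1, where 10.3% of all genes rose and 10.9% fell. These 1 h directions depend on the scaling: with total counts alone the medians of all genes moved by 0.22 in RNA and 0.18 in footprints, 4 members then rose and 3 fell in RNA, and 8 rose and 2 fell in footprints. Over all genes that scaling gave 2335 rises and 530 falls in RNA (1391 and 1335 with TMM) and 1645 and 304 in footprints (585 and 766 with TMM).

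The change between the times was tested directly. In footprints the response to IAA was higher at 8 h than at 1 h for 12 of 23 cytosolic members and lower for 0, where 8.05% of all genes were higher and 5.03% lower, with a median difference of 0.39. Leaving out 1 library gave median differences of 0.34 to 0.49. Members called were fewest without IAA 1 h replicate 1 and most without IAA 8 h replicate 2, and the same held for genes called higher over all genes. With total-count scaling 16 were higher, and over all genes 518 were higher and 180 lower (405 and 253 with TMM). For RNA, 0 members differed between the times in either direction by the edgeR test, with 0 cytosolic and 3 mitochondrial members at an unadjusted p under 0.05 and 0 calls with DESeq2, where 1.07% of all genes were higher and 0.589% lower (69 and 38 genes, or 47 and 109 with total-count scaling, which moved the median of all genes by -0.16). The difference in translation efficiency between the times was not tested.

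How far 1 library carries these counts was measured by leaving each out. Fewer than 11 members rose in footprints at 8 h in each of the 4 fits without 1 footprint library, and rises over all genes became fewer too. Both were fewest without IAA replicate 1. The cytosolic median was 0.19 in that fit and at most 0.30 in the others, with 19 to 22 of 23 values positive. ALA1, DPS1, CDC60 and KRS1 passed in all 4 cases. The 9 rises in translation efficiency became 1 without footprint DMSO replicate 1 or replicate 2, 0 without footprint IAA replicate 1, RNA DMSO replicate 2 or RNA IAA replicate 2, 4 without footprint IAA replicate 2, and 15 without RNA DMSO replicate 1 or RNA IAA replicate 1. Between 22 and 23 of the 23 values stayed positive in those 8 fits, with medians of 0.52 to 0.81, while the rises over all genes ranged from 18 to 378, and 0 of the 9 genes passed in all 8. All 3 rises in translation efficiency at 1 h were lost without any 1 footprint library, where rises over all genes were fewer too. More members rose without RNA IAA replicate 1, as over all genes. The cytosolic median ran from 0.011 to 0.13 over these fits. Fewer than 4 members fell in RNA at 8 h in each of its fits. Falls were fewest without IAA replicate 2, among the members and over all genes. The cytosolic RNA median lay between -0.44 and -0.11, nearest 0 without DMSO replicate 2 or IAA replicate 2. Fewer than 8 members fell in RNA at 1 h without DMSO replicate 1, DMSO replicate 2 or IAA replicate 2, and more fell without IAA replicate 1. Falls over all genes were fewer in all 4 fits. The cytosolic median there ran from -0.30 to -0.14. Fewer than 10 fell in footprints at 1 h without either IAA library or DMSO replicate 2, as over all genes, with medians of -0.12 to -0.080.

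**Figure D3:**
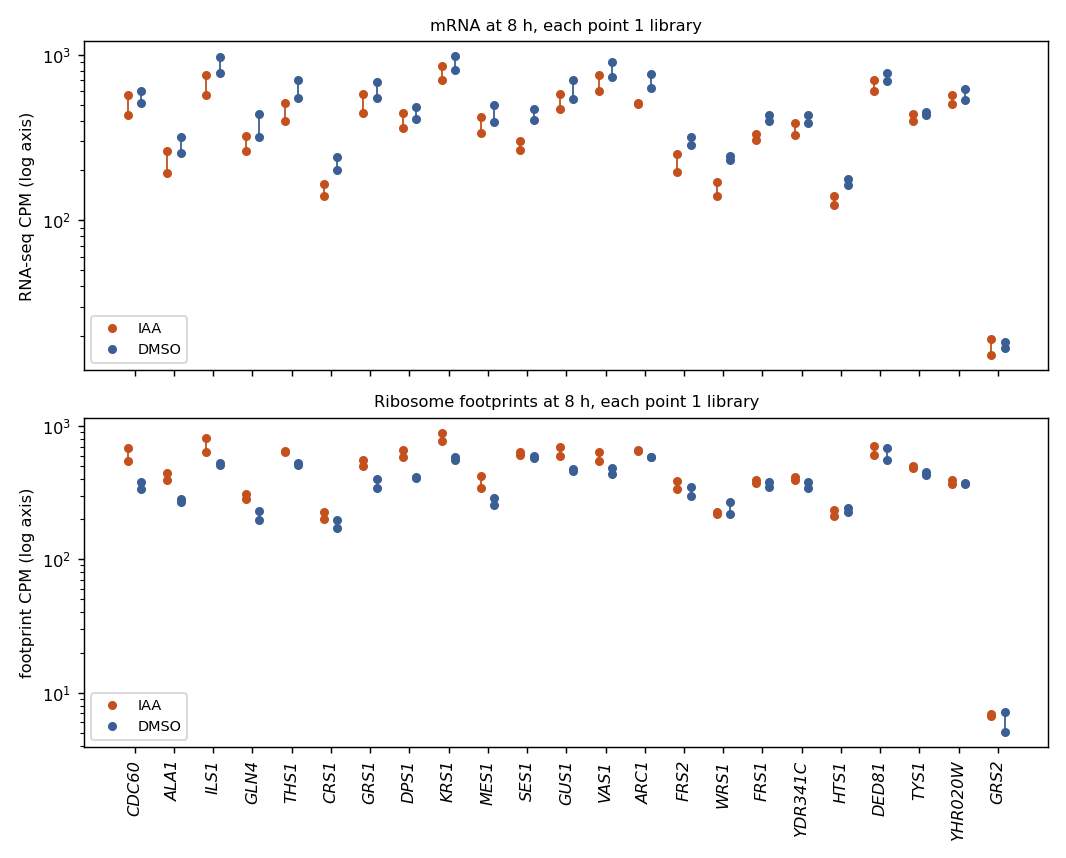
TMM-scaled CPM of the 23 cytosolic members at 8 h in RNA (upper panel) and footprints (lower panel), on log axes, with 1 point for each library and a line joining the 2 libraries of a group. For CDC60, ALA1, ILS1, KRS1 and their neighbours on the left, IAA points lie below or among the DMSO points in RNA and above them in footprints.

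CDC60 (YPL160W) and ILS1 (YBL076C) charge the branched-chain amino acids leucine and isoleucine, and CDC60 showed the largest footprint rise of the 37 at 8 h. CDC60 footprints at 8 h were 678 and 543 CPM with IAA, against 334 and 379 CPM with DMSO, and both IAA libraries lay above both DMSO libraries (log2 fold change 0.77 ± 0.12, adjusted p = 2.37e-08). Its RNA was 568 and 432 CPM with IAA, against 508 and 605 CPM with DMSO, with overlapping groups (log2 fold change -0.16 ± 0.18, adjusted p = 0.577). Footprint CPM over RNA CPM of the library with the same replicate number, the translation efficiency level, was 1.19 and 1.26 with IAA, against 0.658 and 0.626 with DMSO, a rise of 0.88 ± 0.21 on the log2 scale (adjusted p = 0.0202). At 1 h the same gene had 1151 and 1096 CPM with IAA, against 1266 and 1264 CPM with DMSO in footprints and fell slightly (log2 fold change -0.17 ± 0.053, adjusted p = 0.0133), a fall that total-count scaling turned to 0.00985 and that was lost without IAA replicate 1 (-0.21) or IAA replicate 2 (-0.14), and the 2 responses differed by 0.95 ± 0.14 (adjusted p = 7.72e-05).

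ILS1 footprints at 8 h were 812 and 636 CPM with IAA, against 523 and 512 CPM with DMSO, again without overlap (log2 fold change 0.48 ± 0.12, adjusted p = 5.79e-04), though the rise was 0.30 and did not pass without IAA replicate 1. Its RNA was 754 and 569 CPM with IAA, against 776 and 962 CPM with DMSO, where the IAA libraries lay below both DMSO libraries without passing the test (log2 fold change -0.39 ± 0.19, adjusted p = 0.158). Translation efficiency of ILS1 was 1.08 and 1.12 with IAA, against 0.674 and 0.533 with DMSO (log2 fold change 0.83 ± 0.22, adjusted p = 0.0279), highest in both IAA libraries. At 1 h its RNA was 1123 and 1024 CPM with IAA, against 1192 and 1213 CPM with DMSO (log2 fold change -0.16 ± 0.10, adjusted p = 0.238) and its footprints 1142 and 1175 CPM with IAA, against 1257 and 1339.9 CPM with DMSO (log2 fold change -0.16 ± 0.054, adjusted p = 0.0198), and both small values turned positive with total-count scaling (0.052 and 0.018). This footprint fall was also lost without DMSO replicate 2 (-0.11), IAA replicate 1 (-0.14) or IAA replicate 2 (-0.19).

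KRS1 (YDR037W) is the lysine enzyme. KRS1 footprints at 8 h were 884 and 769.6 CPM with IAA, against 585 and 559.6 CPM with DMSO, and the IAA libraries lay above the DMSO libraries (log2 fold change 0.53 ± 0.12, adjusted p = 9.88e-05). RNA of KRS1 was 859.6 and 701 CPM with IAA, against 805 and 977 CPM with DMSO, with overlapping groups (log2 fold change -0.19 ± 0.17, adjusted p = 0.463). Its translation efficiency was 1.03 and 1.098 with IAA, against 0.727 and 0.573 with DMSO (log2 fold change 0.68 ± 0.20, adjusted p = 0.0436). At 1 h KRS1 had 1277 and 1111 CPM with IAA, against 1292 and 1241 CPM with DMSO in RNA and 1186 and 1191 CPM with IAA, against 1177 and 1222 CPM with DMSO in footprints, and neither passed (log2 fold change -0.085 ± 0.11 and log2 fold change -0.014 ± 0.053, which became 0.13 and 0.17 with total-count scaling). DPS1 (YLL018C), the aspartate enzyme, had the next largest rise in footprints at 8 h, with 660.1 and 580.4 CPM with IAA, against 415 and 405 CPM with DMSO and no overlap (log2 fold change 0.60 ± 0.12, adjusted p = 1.84e-05), while its RNA was 448 and 360.0 CPM with IAA, against 408 and 482 CPM with DMSO and overlapped (log2 fold change -0.14 ± 0.17, adjusted p = 0.590). Its translation efficiency rose by 0.69 ± 0.19 (adjusted p = 0.0373).

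Of the genes named above as serving both compartments, ALA1 (YOR335C, alanine) had the largest footprint change at 8 h. ALA1 footprints at 8 h were 444 and 391 CPM with IAA, against 271 and 283 CPM with DMSO, with no overlap (log2 fold change 0.59 ± 0.12, adjusted p = 3.63e-05), and its RNA 262 and 192 CPM with IAA, against 254 and 319 CPM with DMSO, with the highest IAA value above the lowest DMSO value (log2 fold change -0.34 ± 0.18, adjusted p = 0.199). The level of its translation efficiency was 1.696 and 2.04 with IAA, against 1.07 and 0.889 with DMSO (log2 fold change 0.87 ± 0.21, adjusted p = 0.0174). At 1 h footprints of ALA1 fell, with 723 and 741 CPM with IAA, against 893 and 914 CPM with DMSO (log2 fold change -0.30 ± 0.055, adjusted p = 3.69e-05), a fall kept without any single library but not with total-count scaling (-0.12). RNA of ALA1 at 1 h was 773 and 708 CPM with IAA, against 813 and 788 CPM with DMSO (log2 fold change -0.11 ± 0.097, adjusted p = 0.377, and 0.10 with total-count scaling). The footprint response was thus of opposite sign at the 2 times, and the difference of 0.90 ± 0.13 passed its own test (adjusted p = 3.98e-05) without any single library.

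GRS1 (YBR121C, glycine) and VAS1 (YGR094W, valine) followed ALA1 in footprints at 8 h. GRS1 had 553 and 499 CPM with IAA, against 345 and 403 CPM with DMSO (log2 fold change 0.48 ± 0.12, adjusted p = 8.57e-04) and VAS1 636 and 551 CPM with IAA, against 436 and 482 CPM with DMSO (log2 fold change 0.36 ± 0.12, adjusted p = 0.0141), both without overlap, though GRS1 lost its call without DMSO replicate 1 (0.38) and VAS1 without DMSO replicate 1 (0.30) or IAA replicate 1 (0.26). In RNA at 8 h the values were 579.9 and 445 CPM with IAA, against 544 and 681 CPM with DMSO for GRS1 and 759 and 603 CPM with IAA, against 735 and 899.8 CPM with DMSO for VAS1, and neither passed (log2 fold change -0.26 ± 0.18 and log2 fold change -0.26 ± 0.18). At 1 h VAS1 footprints fell, with 858 and 899 CPM with IAA, against 1072 and 1069.6 CPM with DMSO (log2 fold change -0.28 ± 0.054, adjusted p = 8.17e-05, and -0.10 with total-count scaling), while those of GRS1 were 727 and 752 CPM with IAA, against 749.9 and 766 CPM with DMSO (log2 fold change -0.035 ± 0.055, adjusted p = 0.702). GRS1 RNA fell at 1 h, with 983 and 856 CPM with IAA, against 1129 and 1182 CPM with DMSO (log2 fold change -0.33 ± 0.11, adjusted p = 0.0470), a call that was lost without DMSO replicate 1 (-0.37), DMSO replicate 2 (-0.30) or IAA replicate 2 (-0.24), and VAS1 RNA was 997 and 899 CPM with IAA, against 1087 and 1113 CPM with DMSO (log2 fold change -0.21 ± 0.10, adjusted p = 0.134).

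HTS1 (YPR033C, histidine), named above with ALA1, GRS1 and VAS1, did not rise. HTS1 footprints at 8 h were 235 and 210.2 CPM with IAA, against 241 and 225 CPM with DMSO, with overlapping groups (log2 fold change -0.058 ± 0.12, adjusted p = 0.787, and 0.21 with total-count scaling). Its RNA at 8 h fell, with 139 and 124 CPM with IAA, against 162 and 177 CPM with DMSO (log2 fold change -0.37 ± 0.11, adjusted p = 0.0459), but the call was lost when any 1 of the 4 libraries was left out (-0.46 to -0.28) and with total-count scaling (-0.32). Footprints of HTS1 at 1 h showed the smallest adjusted p of the 37 genes, with 273 and 279.6 CPM with IAA, against 374 and 369 CPM with DMSO (log2 fold change -0.43 ± 0.058, adjusted p = 1.72e-07), and RNA at 1 h was 449.6 and 409 CPM with IAA, against 501 and 519 CPM with DMSO (log2 fold change -0.25 ± 0.09, adjusted p = 0.0592). This footprint fall also passed with total-count scaling.

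GRS2 (YPR081C), the near relative of GRS1, changed in none of the 8 comparisons. GRS2 footprints were 10.2 and 10.5 CPM with IAA, against 8.06 and 8.53 CPM with DMSO at 1 h (log2 fold change 0.33 ± 0.22, adjusted p = 0.297) and 6.72 and 6.903 CPM with IAA, against 5.05 and 7.16 CPM with DMSO at 8 h (log2 fold change 0.061 ± 0.44, adjusted p = 0.942), levels that rest on 8 to 66 counts per library across the footprint data. Its RNA was 36.3 and 39.1 CPM with IAA, against 31.5 and 34.2 CPM with DMSO at 1 h (log2 fold change 0.20 ± 0.091, adjusted p = 0.117) and 19.1 and 15.3 CPM with IAA, against 16.95 and 18.5 CPM with DMSO at 8 h (log2 fold change -0.048 ± 0.17, adjusted p = 0.870). RNA of GRS1 was 20.3 to 34.1 times that of GRS2 per kb across the 8 RNA libraries, and its footprints 52.0 to 86.0 times across the 8 footprint libraries. With that SE, a footprint change at 8 h the size of that of GRS1 was not detectable at this depth.

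MES1 (YGR264C, methionine) and GUS1 (YGL245W, glutamate) form a complex with ARC1 (YGL105W), which helps both enzymes to hold tRNA. MES1 footprints at 8 h were 425 and 343 CPM with IAA, against 257 and 287 CPM with DMSO (log2 fold change 0.49 ± 0.12, adjusted p = 8.10e-04) and those of GUS1 698 and 592 CPM with IAA, against 459 and 479 CPM with DMSO (log2 fold change 0.46 ± 0.12, adjusted p = 0.00139), both without overlap, and both rises failed the test without IAA replicate 1 (0.33 for each). ARC1 footprints at 8 h were 658 and 649.8 CPM with IAA, against 582 and 586 CPM with DMSO (log2 fold change 0.16 ± 0.12, adjusted p = 0.344), higher in both IAA libraries but not past the test. The 8 h RNA values were 422 and 335 CPM with IAA, against 391 and 494 CPM with DMSO for MES1, 575 and 470.2 CPM with IAA, against 541 and 708 CPM with DMSO for GUS1 and 507 and 511 CPM with IAA, against 627 and 765 CPM with DMSO for ARC1, with log2 fold changes of -0.23, -0.26 and -0.45, none of which passed (adjusted p = 0.0687 for ARC1). The ARC1 values did not overlap between the groups, while those of MES1 and GUS1 did.

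In RNA at 1 h only ARC1 of the complex passed, and the partners were not tested against each other. ARC1 RNA fell, with 601 and 563 CPM with IAA, against 811 and 750.1 CPM with DMSO (log2 fold change -0.42 ± 0.096, adjusted p = 0.0119, lost without DMSO replicate 1 at -0.37), whereas MES1 RNA was 663 and 603 CPM with IAA, against 636 and 637 CPM with DMSO (log2 fold change -0.0081 ± 0.094, adjusted p = 0.948) and GUS1 RNA 932 and 789 CPM with IAA, against 1103 and 1049 CPM with DMSO (log2 fold change -0.32 ± 0.12, adjusted p = 0.0579). ARC1 over MES1, as RNA CPM per kb, was 1.81 and 1.86 with IAA, against 2.54 and 2.35 with DMSO, without overlap, and ARC1 over GUS1 was 1.21 and 1.34 with IAA, against 1.38 and 1.35 with DMSO. Footprints of ARC1 were 689 and 710.5 CPM with IAA, against 674 and 675 CPM with DMSO (log2 fold change 0.054 ± 0.055, adjusted p = 0.522), so its translation efficiency rose by 0.41 ± 0.11 (adjusted p = 0.0207), a call lost without any 1 of the 4 footprint libraries or without RNA DMSO replicate 1 (0.38 to 0.44). GUS1 footprints fell at 1 h, with 1007 and 1077 CPM with IAA, against 1149 and 1159 CPM with DMSO (log2 fold change -0.15 ± 0.054, adjusted p = 0.0400), but stood at 0.036 with total-count scaling, and the call was lost without IAA replicate 1 (-0.10) or IAA replicate 2 (-0.20), and MES1 footprints were 565 and 628 CPM with IAA, against 608 and 656 CPM with DMSO (log2 fold change -0.081 ± 0.059, adjusted p = 0.339). In footprints, ARC1 over MES1 was 2.50 and 2.32 with IAA at 1 h, against 2.27 and 2.11 with DMSO, and 3.17 and 3.89 with IAA at 8 h, against 4.64 and 4.19 with DMSO.

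FRS1 (YLR060W) and FRS2 (YFL022C) encode the 2 subunits of the phenylalanine enzyme, and neither passed in footprints at 8 h. FRS1 footprints were 391 and 372 CPM with IAA, against 377 and 349 CPM with DMSO (log2 fold change 0.076 ± 0.12, adjusted p = 0.714) and FRS2 footprints 386 and 334 CPM with IAA, against 348 and 297 CPM with DMSO (log2 fold change 0.17 ± 0.12, adjusted p = 0.337). Both genes had lower RNA at 8 h in the IAA libraries, 333 and 306 CPM with IAA, against 397 and 434 CPM with DMSO for FRS1 (log2 fold change -0.38 ± 0.14, adjusted p = 0.0836) and 250.2 and 195 CPM with IAA, against 284 and 317 CPM with DMSO for FRS2 (log2 fold change -0.43 ± 0.15, adjusted p = 0.0704), and neither passed. RNA of both fell at 1 h, with 648 and 605 CPM with IAA, against 794 and 754 CPM with DMSO for FRS1 (log2 fold change -0.31 ± 0.094, adjusted p = 0.0360) and 436 and 446 CPM with IAA, against 568 and 561 CPM with DMSO for FRS2 (log2 fold change -0.36 ± 0.083, adjusted p = 0.0130), and both calls were lost without DMSO replicate 1 (-0.27 and -0.35) or DMSO replicate 2 (-0.35 and -0.37), that of FRS1 also without IAA replicate 2 (-0.26).

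In footprints at 1 h only FRS2 of the pair passed. FRS2 fell, with 367 and 382 CPM with IAA, against 455 and 473 CPM with DMSO (log2 fold change -0.31 ± 0.058, adjusted p = 5.94e-05, and -0.13 without passing under total-count scaling), while FRS1 had 557 and 545 CPM with IAA, against 587 and 597 CPM with DMSO (log2 fold change -0.10 ± 0.056, adjusted p = 0.173). FRS1 over FRS2, as footprint CPM per kb, was 1.28 and 1.20 with IAA at 1 h, against 1.08 and 1.06 with DMSO, without overlap. At 8 h this ratio was 0.851 and 0.935 with IAA, against 0.910 and 0.987 with DMSO, with overlap, and in RNA it was 1.12 to 1.33 in every group of either time. With 2 libraries a group the ratio was not tested.

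YHR020W, the proline enzyme, was the 1 member whose RNA rose at 1 h and whose translation efficiency fell. YHR020W RNA was 951 and 895 CPM with IAA, against 765 and 743 CPM with DMSO, and the groups did not overlap (log2 fold change 0.29 ± 0.096, adjusted p = 0.0440), though the call was lost without DMSO replicate 1 (0.31), DMSO replicate 2 (0.27) or IAA replicate 1 (0.23). Its footprints at 1 h were 611 and 603 CPM with IAA, against 779 and 809 CPM with DMSO, below DMSO in both IAA libraries (log2 fold change -0.39 ± 0.056, adjusted p = 6.48e-07). Translation efficiency of YHR020W was therefore 0.642 and 0.675 with IAA, against 1.02 and 1.09 with DMSO, a change of -0.74 ± 0.11 (adjusted p = 5.53e-04) that also passed without any 1 library, with DESeq2 and with total-count scaling. At 8 h its footprints were 391 and 369 CPM with IAA, against 369 and 373 CPM with DMSO (log2 fold change 0.035 ± 0.12, adjusted p = 0.874) and its RNA 571 and 502 CPM with IAA, against 529.6 and 619.7 CPM with DMSO (log2 fold change -0.10 ± 0.16, adjusted p = 0.697). DED81 (YHR019C), which shares the intergenic window printed above and charges asparagine, had 958 and 925 CPM with IAA, against 1041 and 1038 CPM with DMSO in RNA at 1 h (log2 fold change -0.14 ± 0.096, adjusted p = 0.262) and fell in footprints, with 672 and 664 CPM with IAA, against 804 and 828 CPM with DMSO (log2 fold change -0.29 ± 0.055, adjusted p = 9.26e-05, and -0.11 without passing under total-count scaling).

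CRS1 (YNL247W, cysteine), SES1 (YDR023W, serine) and WRS1 (YOL097C, tryptophan) were the members whose RNA fell at both times. CRS1 RNA was 391 and 351 CPM with IAA, against 500.3 and 489.8 CPM with DMSO at 1 h (log2 fold change -0.42 ± 0.09, adjusted p = 0.0100) and 167 and 140.2 CPM with IAA, against 203 and 241 CPM with DMSO at 8 h (log2 fold change -0.53 ± 0.14, adjusted p = 0.0231). WRS1 RNA was 361 and 328 CPM with IAA, against 481 and 449 CPM with DMSO at 1 h (log2 fold change -0.43 ± 0.091, adjusted p = 0.00880) and 171 and 139 CPM with IAA, against 232 and 243 CPM with DMSO at 8 h (log2 fold change -0.61 ± 0.13, adjusted p = 0.0116). SES1 RNA was 303 and 264 CPM with IAA, against 405 and 472 CPM with DMSO at 8 h (log2 fold change -0.63 ± 0.15, adjusted p = 0.0174) and was 833 and 737 CPM with IAA, against 1019.8 and 991 CPM with DMSO at 1 h (log2 fold change -0.36 ± 0.11, adjusted p = 0.0305). In each of these the IAA libraries lay below both DMSO libraries. At 8 h all 3 falls lost their call without IAA replicate 2 (-0.41, -0.47 and -0.53 for CRS1, WRS1 and SES1), and those of CRS1 and SES1 also without DMSO replicate 2 (-0.40 and -0.51). At 1 h the falls of CRS1 and WRS1 passed without any 1 library and with total-count scaling, whereas that of SES1 was -0.14 with that scaling and did not pass, and it was lost without DMSO replicate 1 (-0.34), DMSO replicate 2 (-0.38) or IAA replicate 2 (-0.27).

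None of the 3 passed in footprints at 8 h. SES1 footprints at 8 h were 639 and 602 CPM with IAA, against 572 and 597 CPM with DMSO (log2 fold change 0.085 ± 0.12, adjusted p = 0.664), WRS1 footprints 220.5 and 225 CPM with IAA, against 268 and 219 CPM with DMSO (log2 fold change -0.11 ± 0.12, adjusted p = 0.576) and CRS1 footprints 226 and 201 CPM with IAA, against 197 and 172 CPM with DMSO (log2 fold change 0.23 ± 0.13, adjusted p = 0.189). Translation efficiency at 8 h rose for SES1, with 2.11 and 2.28 with IAA, against 1.41 and 1.26 with DMSO (log2 fold change 0.67 ± 0.18, adjusted p = 0.0344), and for CRS1, with 1.36 and 1.43 with IAA, against 0.972 and 0.713 with DMSO (log2 fold change 0.71 ± 0.18, adjusted p = 0.0268), and was 1.29 and 1.61 with IAA, against 1.16 and 0.901 with DMSO for WRS1 (log2 fold change 0.46 ± 0.18, adjusted p = 0.132). Already at 1 h it rose for WRS1 (0.39 ± 0.11, adjusted p = 0.0239) and SES1 (0.38 ± 0.12, adjusted p = 0.0383), calls that were lost without any 1 of the 4 footprint libraries, that of SES1 also without RNA DMSO replicate 1 (0.38).

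Of the remaining cytosolic members, 2 rose in footprints at 8 h. GLN4 (YOR168W, glutamine) rose in footprints at 8 h (log2 fold change 0.45 ± 0.12, adjusted p = 0.00239) and also in translation efficiency (log2 fold change 0.76 ± 0.21, adjusted p = 0.0337), as did THS1 (YIL078W, threonine; log2 fold change 0.32 ± 0.12, adjusted p = 0.0363, and log2 fold change 0.73 ± 0.20, adjusted p = 0.0356). RNA of THS1 fell at 1 h (log2 fold change -0.44 ± 0.12, adjusted p = 0.0258), a call lost without any library but IAA replicate 1 (-0.47 to -0.31). THS1 lost its footprint call when any 1 of the 4 libraries was left out, and GLN4 without DMSO replicate 1 (0.34) or IAA replicate 1 (0.38). YDR341C (arginine) fell in footprints at 1 h (log2 fold change -0.15 ± 0.056, adjusted p = 0.0441, 0.032 with total-count scaling, and lost without DMSO replicate 2, IAA replicate 1 or IAA replicate 2 at -0.13 to -0.16) and did not pass at 8 h (log2 fold change 0.16 ± 0.12, adjusted p = 0.354). TYS1 (YGR185C, tyrosine) passed in none of the 8 comparisons, with 0.16 ± 0.12 in footprints and 0.18 ± 0.18 in translation efficiency at 8 h.

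**Figure D4:**
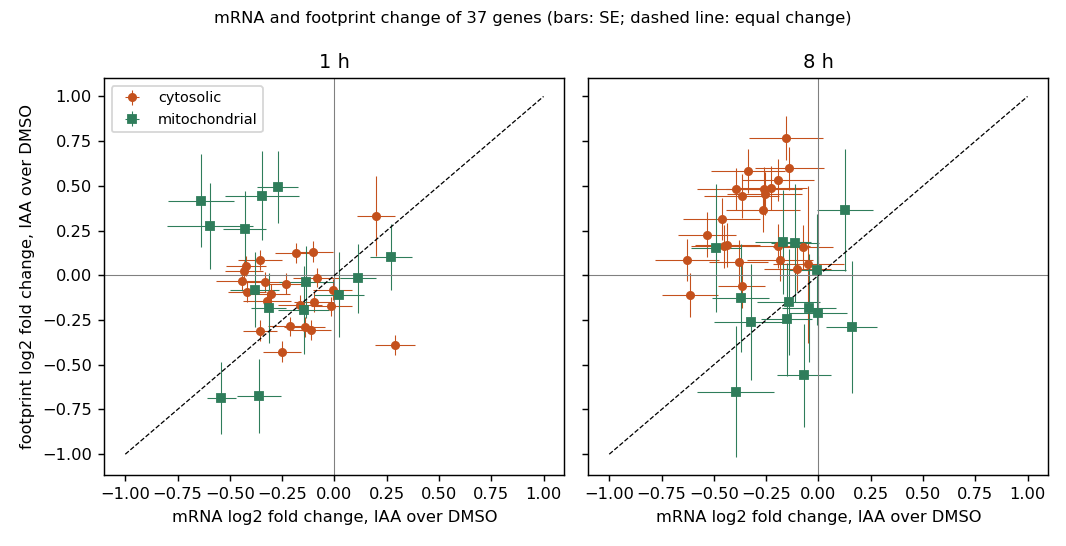
Log2 fold change of footprints against that of mRNA, IAA over DMSO, for the 37 genes at 1 h (left) and 8 h (right), with SE bars and a dashed line of equal change. At 8 h all 23 cytosolic members lie above the line, at mRNA values below 0, and the mitochondrial members scatter on both sides of it.

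In the mitochondrial set RNA at 1 h had the most calls, but 0 of 14 members differed in RNA response between the times. With total-count scaling the RNA medians of the set were -0.11 at 1 h and -0.083 at 8 h. RNA at 1 h fell for 6 of 14 and rose for 0, where 21.4% of all genes fell and 22.3% rose, with a median of -0.33 and 11 of 14 values negative, a count that became 1 fall and 2 rises with total-count scaling. NAM2 (YLR382C), the leucine enzyme, which also takes part in splicing of mitochondrial introns, had 42.2 and 42.8 CPM with IAA, against 61.8 and 61.8 CPM with DMSO (log2 fold change -0.54 ± 0.069, adjusted p = 0.00138), and its fall passed without any 1 library and with total-count scaling. The largest fall was that of DIA4 (YHR011W, serine), with 13.6 and 16.2 CPM with IAA, against 20.3 and 26.1 CPM with DMSO (log2 fold change -0.64 ± 0.16, adjusted p = 0.0178), lost without DMSO replicate 2 (-0.44). MSY1 (YPL097W, tyrosine; log2 fold change -0.43 ± 0.10), MST1 (YKL194C, threonine; log2 fold change -0.38 ± 0.12), MSK1 (YNL073W) (lysine; log2 fold change -0.36 ± 0.10) and ISM1 (YPL040C, isoleucine; log2 fold change -0.31 ± 0.084) were the others. All had both IAA libraries below both DMSO libraries, as did 36.6% of all genes, and all were lost without DMSO replicate 2. Those of MST1, MSK1 and ISM1 were also lost without IAA replicate 1. Leaving out 1 library gave -0.51 to -0.28 for MST1, -0.49 to -0.22 for MSK1 and -0.37 to -0.26 for ISM1. Without DMSO replicate 2 the median of the set was -0.23, and without IAA replicate 1 it was -0.25. Fewer than 6 falls were called in each of these fits, and falls over all genes were fewer too.

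In footprints at 1 h, 2 of 14 fell and 0 rose, where 14.8% of all genes fell and 11.3% rose, and with total-count scaling 1 fell and 2 rose. NAM2 had 10.5 and 9.003 CPM with IAA, against 15.3 and 15.9 CPM with DMSO (log2 fold change -0.69 ± 0.20, adjusted p = 0.00865) and MSK1 7.91 and 10.03 CPM with IAA, against 13.97 and 15.3 CPM with DMSO (log2 fold change -0.68 ± 0.21, adjusted p = 0.0127), both without overlap. DESeq2 gave NAM2 an adjusted p of 0.167 and MSK1 none, and the edgeR calls were lost without IAA replicate 2 for NAM2 (-0.56) and without IAA replicate 1 for MSK1 (-0.54). Translation efficiency at 1 h rose for 2 of 14, where 10.3% of all genes rose, DIA4, with 0.532 and 0.507 with IAA, against 0.285 and 0.226 with DMSO (log2 fold change 0.99 ± 0.31, adjusted p = 0.0334), and MSM1 (YGR171C, methionine), with 0.4800 and 0.441 with IAA, against 0.274 and 0.268 with DMSO (log2 fold change 0.70 ± 0.20, adjusted p = 0.0239), and both calls were lost without any 1 of the 4 footprint libraries, that of DIA4 also without RNA DMSO replicate 2 (0.80) or RNA IAA replicate 1 (0.89). Footprints of DIA4 were 7.25 and 8.23 CPM with IAA, against 5.78 and 5.904 CPM with DMSO and those of MSM1 13.2 and 13.6 CPM with IAA, against 9.404 and 9.68 CPM with DMSO, higher in both IAA libraries for each gene without passing.

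At 8 h, RNA fell for 1 of 14 mitochondrial members and rose for 0, where 10.3% of all genes fell and 10.7% rose. The fall was that of MSF1 (YPR047W, phenylalanine), with 27.5 and 29.3 CPM with IAA, against 38.5 and 41.3 CPM with DMSO (log2 fold change -0.49 ± 0.12, adjusted p = 0.0172). DESeq2 did not make this call, and it was lost without DMSO replicate 2 (-0.44), IAA replicate 1 (-0.45) or IAA replicate 2 (-0.53). Footprints and translation efficiency at 8 h gave 0 calls in either direction by edgeR and by DESeq2, with 0 members at an unadjusted p under 0.05 in either. By edgeR 11.8% of all genes rose and 13.6% fell in footprints, and 3.73% rose and 2.22% fell in efficiency. Footprint values ran from -0.65 (DIA4) to 0.37 (MSE1 (YOL033W), glutamate), and 5 of 14 were positive. Translation efficiency values ran from -0.55 (MSK1) to 0.61 (MSF1), and 6 of 14 were positive. The medians of -0.17 in footprints and -0.041 in efficiency became 0.098 and 0.044 with total-count scaling. The difference between the cytosolic and mitochondrial sets was not tested.

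Cytosolic members were long genes, with a median coding length of 1857 bases, against 1669.5 for mitochondrial members and 1266 for the protein-coding genes tested. Across genes Spearman rho between length and the efficiency change at 8 h was 0.60 over the 23 cytosolic members, -0.10 over the 14 mitochondrial members and 0.38 over 5322 genes. For footprints at 8 h rho was 0.57, -0.0022 and 0.45 over 5000 genes. At 1 h the values, in the same order, were -0.24, -0.62 and -0.089 over 5132 genes in footprints. In efficiency at 1 h they were -0.40, -0.37 and -0.15 over 5754 genes. For the footprint difference between the times they were 0.64, 0.59 and 0.50 over 5021 genes. Genes of a library share its depth and preparation and are not independent, so these are descriptions. The part of length in the change of the cytosolic set was not tested.

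**Figure D5:**
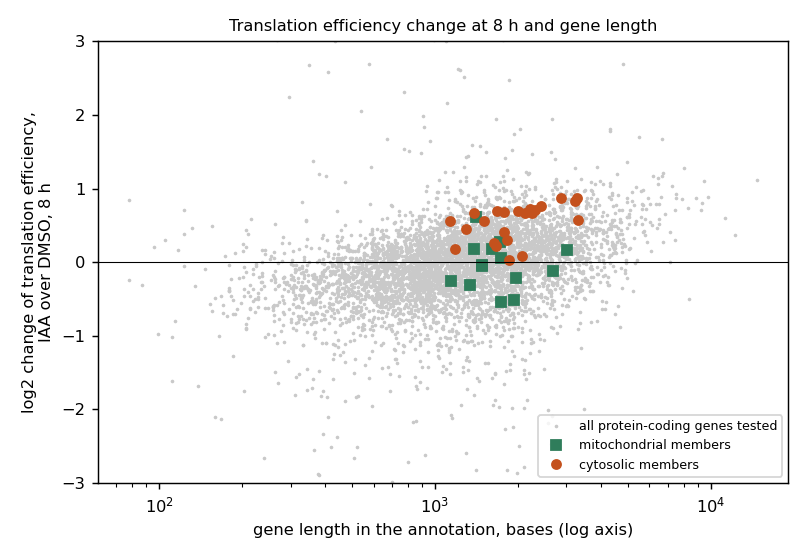
Log2 change of translation efficiency at 8 h, IAA over DMSO, against gene length in the annotation (log axis) for all protein-coding genes tested (grey), mitochondrial members (squares) and cytosolic members (circles), with 59 genes beyond the axis limits of 3. The cytosolic members range from 0.027 (GRS2) to 0.88 (CDC60), all above 0.

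Other parts of the charging pathway were read from lists named with the members. Among 8 genes of charged tRNA delivery and uncharged tRNA sensing, footprints at 8 h rose for 3 and fell for 2, where 11.8% of all genes rose and 13.6% fell. GCN1 (0.93 ± 0.12, adjusted p = 1.04e-11), GCN20 (0.56 ± 0.14, adjusted p = 5.64e-04) and GCN2 (0.72 ± 0.23, adjusted p = 0.0106), the kinase and both of its activators, were the rises. EFB1 (-0.77 ± 0.11, adjusted p = 1.88e-10) and TEF4 (-0.28 ± 0.11, adjusted p = 0.0442), subunits of the factor that recycles eEF1A, were the falls. At 1 h footprints of the list fell for 6 and rose for 0 (4 and 0 with total-count scaling), where 14.8% of all genes fell and 11.3% rose. GCN20 was among these falls (-0.21 ± 0.059, adjusted p = 0.00617). RNA of the list fell for 4 at each time (21.4% of all genes fell at 1 h and 10.3% at 8 h), led by EFB1 (-0.77 ± 0.13 at 1 h, adjusted p = 0.00352, and -0.78 ± 0.15 at 8 h, adjusted p = 0.00764), and GCN20 RNA rose at 1 h (0.27 ± 0.093, adjusted p = 0.0484). Translation efficiency rose for GCN1 at 8 h (1.28 ± 0.22, adjusted p = 0.00253) and fell for GCN20 at 1 h (-0.55 ± 0.12, adjusted p = 0.00461).

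Among 47 tRNA modification genes, footprints at 8 h rose for 9 and fell for 1 (21 and 1 with total-count scaling), where 11.8% of all genes rose and 13.6% fell. RNA of this list rose for 16 and fell for 4 at 1 h (36 and 0 with total-count scaling), where 22.3% of all genes rose and 21.4% fell, and rose for 7 and fell for 3 at 8 h, where 10.7% rose and 10.3% fell. Efficiency of this list fell for 9 and rose for 0 at 1 h, where 10.9% of all genes fell and 10.3% rose, with KAE1 (-0.71 ± 0.13, adjusted p = 0.00175), IKI3 (-0.66 ± 0.12, adjusted p = 0.00252) and NCS6 (-0.76 ± 0.15, adjusted p = 0.00258) leading. At 8 h 1 of the 47 rose (ABP140) and 1 fell (THG1), where 3.73% of all genes rose and 2.22% fell. IKI3, a subunit of the Elongator complex, fell in footprints at 1 h (-0.38 ± 0.063) and rose at 8 h (0.71 ± 0.15), a difference of 1.09 ± 0.16 (adjusted p = 5.14e-05). Of the 15 genes of tRNA processing, splicing and export, efficiency fell for 6 and rose for 0 at 1 h (3 and 0 with total-count scaling), where 10.9% of all genes fell. Of the 14 tested in footprints at 8 h, TPT1 and LHP1 fell and 0 rose, where 13.6% of all genes fell, and 1 fell and 2 rose with total-count scaling. Of 13 mitochondrial tRNA and translation factors, RNA fell for 5 and rose for 1 at 1 h (2 and 3 with total-count scaling), where 21.4% of all genes fell and 22.3% rose, led by TUF1, the mitochondrial elongation factor (-0.82 ± 0.076, adjusted p = 5.27e-04), and TUF1 fell again at 8 h (-0.65 ± 0.11, adjusted p = 0.00348).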

How the data were processed

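The deposited files hold whole-number counts per gene, 1 file for each of the 16 libraries, which the authors made from trimmed and aligned reads. Trimming with cutadapt, alignment with STAR and 2 genome builds, sacCer3 and R64, appear in the submitters' processing notes. The counter is not given in the sources used here. Entries of the RNA files that name no gene, 5154623 to 38109323 counts a library, were left out. The gene lengths in the deposited footprint files are 20 codons shorter than the annotated coding length for 5673 of 6005 genes and all 37 members, and do not show which codons were left out. RNA at 1 h was poly(A)-enriched and at 8 h rRNA-depleted, and footprint libraries of the 2 times also differed in preparation, so levels are not compared between times and a difference in response between times cannot be told apart from preparation. IAA and DMSO of 1 time were prepared alike.

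Groups came from the sample labels, with 2 libraries each. The labels call the replicates biological and do not say what was kept separate, and the p-values reflect how far these libraries differed. IAA was tested against DMSO within each time and assay with edgeR 4.0.16 (R 4.3.3, TMM scaling, filterByExpr, robust glmQLFit, glmQLFTest, Benjamini-Hochberg adjustment over all genes tested, threshold 0.05). Translation efficiency was the interaction of assay and treatment, and the 8 h minus 1 h difference the interaction of time and treatment. Alternatives were DESeq2 1.42.0, its size factors in edgeR, total-count scaling, no filter, a minimum absolute log2 fold change of 0.58, the replicate number as a block, all 8 libraries of an assay in 1 fit, and each library left out. The edgeR steps were tested on simulated data.

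The members and lists were chosen with earlier results of these data known. Members with a role (both compartments, GRS2, the ARC1 complex, the FRS1 and FRS2 subunits, KRS1 and ILS1) and, in each comparison, up to 4 called members in each direction with the smallest adjusted p are given in every library, and from other lists up to 3 called genes. DED81, GLN4, THS1, YDR341C, TYS1, MSK1 and others outside that rule were named after their values were seen. Promoters were the 500 bases before the start codon in the R64 genome.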

Additional observations from a re-analysis of the deposited data

Results flagged for a closer look

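The footprint response to IAA differed between 8 h and 1 h for 12 cytosolic members by edgeR's quasi-likelihood test of the difference itself (Benjamini-Hochberg adjusted over all genes, 2 libraries a group). Over all genes 8.05% were higher and 5.03% lower. The differences, 8 h minus 1 h on the log2 scale, were 0.95 for CDC60, 0.90 for ALA1, 0.66 for ILS1, 0.66 for VAS1, 0.62 for GUS1, 0.58 for MES1, 0.56 for KRS1, 0.53 for GRS1, 0.50 for FRS2, 0.49 for DPS1, 0.44 for YHR020W and 0.36 for THS1. ALA1, GUS1, ILS1, CDC60, KRS1 and VAS1 passed without any 1 of the 8 libraries. Libraries of the 2 times were prepared differently, and time and preparation cannot be told apart.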

How the results depend on the processing

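Counts here are members called in either direction. With total-count scaling 3 mitochondrial members were called in RNA at 1 h, 20 cytosolic in footprints at 8 h and 15 in translation efficiency at 8 h. Over all genes that scaling called 37.4% higher and 8.48% lower in RNA at 1 h. The shares were 26.8% and 4.13% in footprints at 8 h, and 6.58% and 1.89% in translation efficiency at 8 h. DESeq2 called 8 cytosolic and 0 mitochondrial members in RNA at 8 h and 0 mitochondrial in footprints at 1 h. Over all genes it called 6.59% higher and 9.57% lower in the first, and 3.56% and 10.3% in the second. The minimum fold change left 0 cytosolic and 1 mitochondrial in RNA at 1 h, 2 and 0 in RNA at 8 h, 0 cytosolic in footprints at 1 h, 3 in footprints at 8 h, 1 in translation efficiency at 1 h and 5 in the footprint difference between times. The share over all genes was not counted for that setting. Fits of all 8 libraries gave 3 cytosolic in RNA at 1 h, 7 and 2 mitochondrial in RNA at 8 h, and 5 and 0 in footprints at 1 h. Over all genes these fits called 18% higher and 17.7% lower in RNA at 1 h. The shares were 11% and 12.9% in RNA at 8 h, and 3.02% and 6.6% in footprints at 1 h.

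The replicate block called 16 cytosolic and 10 mitochondrial members in RNA at 1 h, 2 cytosolic in RNA at 8 h and 17 in translation efficiency at 8 h, and counts in the other comparisons stayed within 1.5 times. Over all genes the block called 32.6% higher and 32.5% lower in RNA at 1 h. The shares were 10.9% and 7.85% in RNA at 8 h, and 8.99% and 6.45% in translation efficiency at 8 h. Same-numbered libraries deviated together with r = 0.60 in RNA at 1 h, 0.34 in RNA at 8 h, 0.029 in footprints at 1 h and 0.041 in footprints at 8 h over all genes, and with 0.82, -0.62, -0.077 and 0.62 over the members alone, in 2 pairs, and the labels do not tie the numbers to a shared culture or day.

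Leaving out each library in turn gave cytosolic counts of 2 to 10 in RNA 1 h, 0 to 3 in RNA 8 h, 6 to 10 in footprint 1 h, 5 to 10 in footprint 8 h, 1 to 8 in translation efficiency 1 h, 0 to 15 in translation efficiency 8 h, 6 to 17 in the footprint difference between times, and mitochondrial counts of 2 to 8 in RNA 1 h, 0 to 1 in RNA 8 h, 1 to 2 in footprint 1 h, 0 to 1 in footprint 8 h, 0 to 5 in translation efficiency 1 h, 0 throughout in translation efficiency 8 h, 0 to 1 in the footprint difference between times. The number of calls over all genes also changed with the library left out, in every comparison listed. The spread of these counts is therefore not particular to the members. Log2 values that changed sign without 1 library had these ranges. The values in RNA 1 h were KRS1 -0.20 to 0.011, MES1 -0.092 to 0.058. The values in RNA 8 h were GRS2 -0.22 to 0.11. The values in footprint 1 h were KRS1 -0.042 to 0.016. The values in footprint 8 h were GRS2 -0.073 to 0.41, FRS1 -0.0056 to 0.13, HTS1 -0.14 to 0.021. The values in translation efficiency 1 h were KRS1 -0.077 to 0.13, FRS2 -0.042 to 0.019, ILS1 -0.12 to 0.024. The values in translation efficiency 8 h were GRS2 -0.083 to 0.46. The values in the RNA difference between times were ARC1 -0.18 to 0.10, VAS1 -0.25 to 0.11, GUS1 -0.12 to 0.26, GRS1 -0.16 to 0.25, KRS1 -0.29 to 0.033, FRS2 -0.30 to 0.092. The values in the footprint difference between times were GRS2 -0.38 to 0.11.

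With total-count scaling the sign changed in RNA at 1 h for ALA1 (0.10), ILS1 (0.052), KRS1 (0.13), MES1 (0.21) and VAS1 (0.0012), in footprints at 1 h for YDR341C (0.032), GUS1 (0.036), GRS1 (0.15), ILS1 (0.018), CDC60 (0.00985), KRS1 (0.17), MES1 (0.10) and FRS1 (0.078), in footprints at 8 h for HTS1 (0.21), in translation efficiency at 1 h for FRS2 (0.0084), and in the RNA difference between times for GUS1 (-0.11) and GRS1 (-0.10). KRS1 efficiency at 1 h was -0.0114 with DESeq2 and -0.0115 with its size factors in edgeR. The cause of these changes was not tested. Depth limits the mitochondrial members most, with 7 to 191 footprint counts a library at 8 h.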
